A study of Mus musculus with 12 samples.

Results

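The cytosolic ribosomal protein genes encode the proteins of the small (40S) and large (60S) subunits of the ribosome, named Rps and Rpl after the subunit they join. All probe sets of the array whose annotation gives a single gene symbol of the form Rps, Rpl or Rplp0 to Rplp2 were taken, without the S6 kinase genes and without symbols of pseudogenes, which gave 48 of the 12488 probe sets and 34 of the 8252 genes so named. The arrays measured RNA from whole mouse cerebellum at 3 stages, P0, P15 and P30, which stand for postnatal days 0, 15 and 30. At each stage euploid mice, with the normal chromosome number, were set beside Ts1Cje mice, which carry a segmental trisomy of chromosome 16 and are used as a model of Down syndrome. Each of the 6 combinations of genotype and stage is 1 RNA pool, made from 3 cerebella except for the euploid P30 pool with 2, and each pool was hybridised to 2 arrays, which gives 12 arrays. No treatment was given in the labels, and the sex and strain background of the mice were not given in the sources used here. A pool is 1 sample, so its 2 arrays show technical spread and the animals within it cannot be separated.

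A ribosome holds 1 copy of most of its proteins, and cells make these proteins in step with ribosomal RNA when they grow and divide. The mRNAs of ribosomal proteins belong to the TOP class: they usually start with a C followed by a run of pyrimidines (C or T in the DNA), and their translation is turned up or down together by growth signals through the kinase mTOR and the RNA-binding protein Larp1. In the cerebellum after birth, progenitors of granule neurons divide in an outer layer and then leave the cycle, while Purkinje cells grow and oligodendrocytes make myelin.

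The shared start of these mRNAs is the feature that the choice of genes did not use, so the start sites of 7 genes described below are shown. These 7 were not taken by a stated rule and do not stand for the other genes. RefSeq promoters (build GRCm38.p6) were matched for 27 of the 34 genes, with 36 annotated starts. Rps4l, Rpl8, Rps20, Rpl32, Rpl7, Rps14 and Rps29 were not matched. Each line gives 30 bases, 5′ to 3′ on the gene's strand, with the annotated start at base 16, and capitals mark runs of 5 or more pyrimidines.
Rps10: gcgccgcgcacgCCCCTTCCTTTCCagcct
Rps18: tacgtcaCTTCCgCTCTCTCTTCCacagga
Rpl7a: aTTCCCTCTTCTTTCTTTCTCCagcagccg
Rps27: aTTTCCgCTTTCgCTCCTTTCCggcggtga
Rps7: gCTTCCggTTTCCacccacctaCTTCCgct
Rplp0: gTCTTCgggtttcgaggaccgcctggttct
Rpl37a: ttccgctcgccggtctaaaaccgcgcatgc
The stretches lie at chr17:27635230-27635259 (minus strand) for Rps10, chr17:33955651-33955680 (minus) for Rps18, chr2:26910792-26910821 (plus) for Rpl7a and chr3:90213634-90213663 (minus) for Rps27. Those of Rps7, Rplp0 and Rpl37a lie at chr12:28635939-28635968 (minus), chr5:115559452-115559481 (plus) and chr1:72711245-72711274 (plus).

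Rps10, Rps18 and Rps27 show the textbook form, a C at the annotated start followed by at least 4 pyrimidines. In Rpl7a a run of 21 pyrimidines spans the annotated start. In Rps7, Rplp0 and Rpl37a no such run is seen at it. Rps19, Rpl10a, Rps28, Rps4x and Rpl41, described below but not printed, had no C and 4 pyrimidines at an annotated start. A C and 4 pyrimidines from an annotated start were found in 5 of 27 ribosomal protein genes (18.5%), against 467 of 17492 protein-coding genes in the same table (2.67%). A run of at least 8 pyrimidines within 15 bases of a start, which can overlap the first feature, was found in 11 of 27 (40.7%) against 14% of the protein-coding genes. CGGAAG, the core letters bound by ETS transcription factors, was searched on both strands from 250 bases before to 50 after a start and was present in 18 of 27 (66.7%) against 23.5%. A gene with several annotated starts was counted when any of them held the feature. Annotated starts can lie some bases away from the start used in cerebellum, so a missing run says only that these letters are not in this window.

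Of the 48 probe sets, 29 probe sets of 25 genes had a mean signal of at least 20.1, the limit below which probe sets were not tested. The other 19 had mean signals of 2.41 to 18.7. Rpl32, Rpl35a, Rpl38, Rpl39, Rpl39l, Rps14, Rps15, Rps20 and Rps27l were represented by such dim probe sets alone, so no level is drawn for these 9 genes. The member just inside the limit was an Rpl19 probe set with a mean signal of 26.6, and the one just outside it an Rps24 probe set with 18.7. Rplp1, Rplp2, Rps6, Rps27a, Rpl3, Rpl10, Rpl13 and Rpl36a had no probe set with a single symbol and were not analysed here. Many ribosomal protein genes have near-identical processed copies in the genome, and probes with suffixes such as _f_at or _s_at can bind several transcripts, so a value may include related sequences.

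Arrays were alike in brightness, with median signals of 30.4 to 36.2. The 3' to 5' ratio of the GAPDH controls was 0.841 to 1.07, and that of the actin controls 1.13 to 1.67, highest on both Ts1Cje P30 arrays at 1.55 and 1.67. All 7 cerebellum markers (En2, Zic1, Zic2, Cbln1, Pcp2, Calb1 and Gabra6) were above the limit, with a summed signal of 3003 to 3443 at P0 and 9098 to 12750 at the later stages. Between the 2 arrays of a pool the median absolute log2 difference of the 29 tested ribosomal protein probe sets was 0.13 to 0.27, and that of all tested probe sets 0.19 to 0.24.

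Between P0 and P15 most measured ribosomal protein transcripts fell. Of the 29 tested probe sets, 21 (72.4%, 19 genes) were called lower at P15, at an adjusted p under 0.05 in limma's moderated test, and 0 were called higher. Over all 7453 tested probe sets, 14.4% were called lower and 13.6% higher. At an unadjusted p under 0.05 the counts among the 29 were 22 lower and 0 higher, against 1555 and 1421 of all 7453. The median difference of the 29 was -0.59 on the log2(signal + 4.6) scale, or 1.51-fold lower, against -0.03 for all tested probe sets. Differences ranged from -1.56 to 0.37. In bulk tissue, fewer cells of a type and less RNA per cell cannot be told apart, and each array was scaled to a common mean, so a fall is relative to the other transcripts. With no limit on dim probe sets 18 of 48 were called lower. The share over all probe sets was not counted in that fit, and the 14.4% does not apply to it.

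The acidic stalk protein encoded by Rplp0 sits at the base of the 60S stalk that recruits elongation factors. Its probe set gave 3835 and 4581 on the euploid P0 arrays, 1898 and 2101 at P15 and 1483 and 1338 at P30. The Ts1Cje arrays gave 3774 and 4152 for the P0 pool, 1985 and 2344 for the P15 pool, and 1366 and 1410 for the P30 pool. No array of a later stage overlapped one of an earlier stage, in either genotype or between them. The fitted difference from P0 to P15 was -0.97 ± 0.117 (SE, limma, adjusted p = 0.000647), 1.96-fold lower.

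Rps19, the 40S protein most often mutated in human Diamond-Blackfan anaemia, showed one of the largest falls. On the euploid arrays it gave 1729 and 1045 at P0, 499.5 and 243 at P15, and 282 and 264 at P30. In Ts1Cje it gave 1287 and 827 at P0, 577 and 424 at P15, and 212 and 254 at P30. The 2 arrays of a pool differed widely at P0 and P15, always with the first one higher, yet every P15 array lay below every P0 array. The fitted difference from P0 to P15 was -1.49 ± 0.209 (limma, adjusted p = 0.00122).

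Rps4l is an autosomal relative of Rps4x, the X-linked gene of a 40S protein, and had the largest fitted fall of the 29, -1.56 ± 0.203 (limma, adjusted p = 0.000914). Its signals were 334 and 373 in euploid and 289 and 276 in Ts1Cje at P0. At P15 they were 86.8 and 88.1 in euploid and 116 and 133 in Ts1Cje, and at P30 97.8 and 115, and 112 and 117. This probe set carries the suffix of probes that can bind several transcripts, and the other Rps4l probe set was below the limit. Of 5 Rps4x probe sets 1 was above the limit, and it gave 2361 to 2958 at P0 and 1528 to 1682 at P15 over both genotypes, with a difference of -0.73 ± 0.125 (limma, adjusted p = 0.00326).

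Rpl10a, a protein of the mobile L1 stalk of the 60S subunit, was measured by 2 probe sets. The brighter one gave 1075 and 1048 in euploid and 1074 and 1003 in Ts1Cje at P0, then 419 and 445, and 512 and 485, at P15. No P15 array overlapped a P0 array, and the fitted difference was -1.17 ± 0.138 (limma, adjusted p = 0.000563). The dimmer one, with the suffix _f_at, spread more, from 392 to 950.2 over the P0 arrays and from 242 to 414 over the P15 arrays, which overlap. Its difference was -1.07 ± 0.159 (limma, adjusted p = 0.00162). Without the first euploid P0 array it was -0.75, with an adjusted p of 0.0568.

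Rps10 and Rps7, 40S proteins that are also mutated in Diamond-Blackfan anaemia in humans, fell about as far as Rplp0. Rps10 gave 1383 to 1713 over the 4 P0 arrays and 688 to 872 over the 4 P15 arrays, with a fitted difference of -1.01 ± 0.144 (limma, adjusted p = 0.00132). Rps7 gave 2292 to 2670 at P0 and 1183 to 1576 at P15, with -0.96 ± 0.131 (limma, adjusted p = 0.00114). Rps7, Rps18, Rps28, Rps24, Rps4x, Rpl41, Rpl7a and Rpl37a were chosen for description after their values were seen. Both tested Rps28 probe sets were lower at P15, by -0.88 ± 0.123 for the dimmer and -0.54 ± 0.109 for the brighter one (suffix _f_at), while the other one was below the limit. Rps28 is a small 40S protein near the exit of the mRNA channel. Rps18, a protein of the head of the 40S subunit whose start is shown above, gave 2276 to 2495 at P0 and 1390 to 1588 at P15, without overlap, with a difference of -0.72 ± 0.127 (limma, adjusted p = 0.00393).

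**Figure D1:**
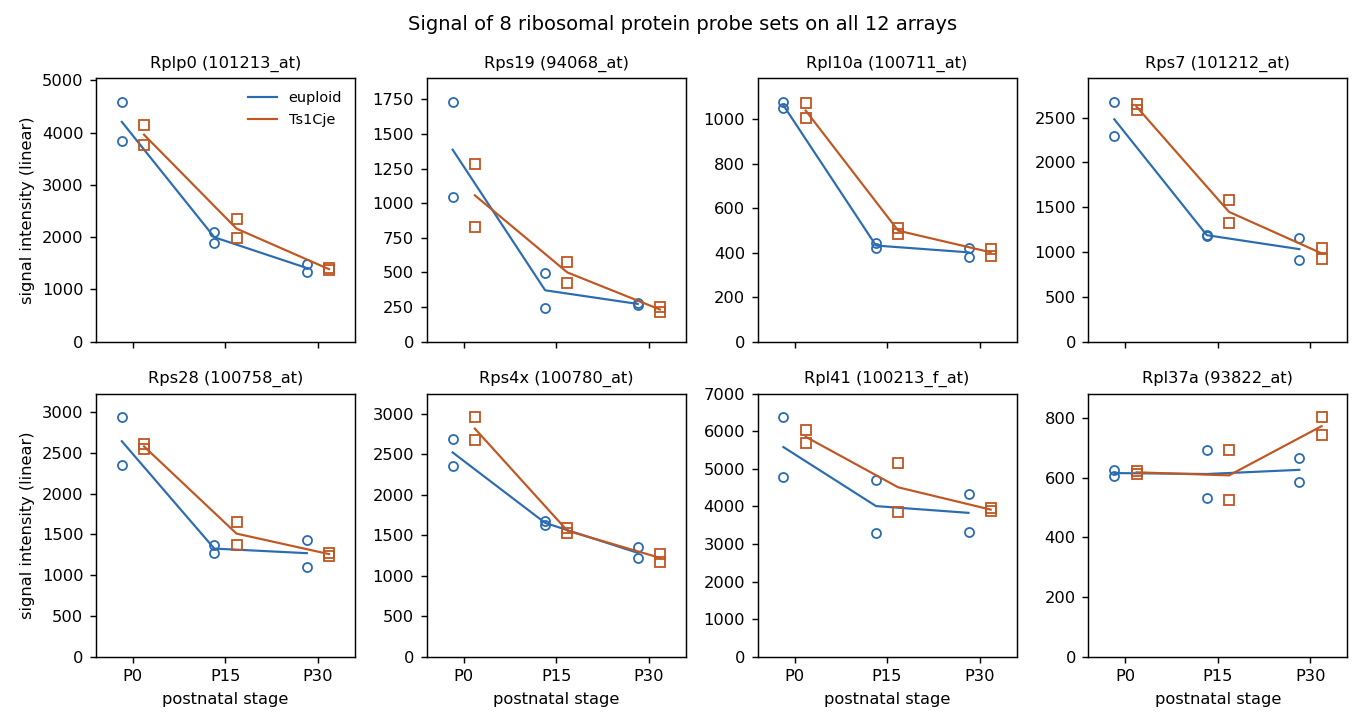
Signal intensity (linear scale) of 8 ribosomal protein probe sets on all 12 arrays by postnatal stage. Circles (euploid) and squares (Ts1Cje) are single arrays and lines join the means of the 2 arrays of a pool. In 6 panels every P0 array lies above every P15 array, Rpl41 overlaps between these stages, and Rpl37a stays between 524 and 802.

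The smallest differences among the 21 calls were those of Rpl41, Rpl7 and a probe set named Rps24. Rpl41, which encodes the smallest ribosomal protein, gave 4789 to 6367 at P0 and 3305 to 5156 at P15, so the stages overlapped, and its difference was -0.44 ± 0.107 (limma, adjusted p = 0.0166). Rpl7, an RNA-binding protein of the 60S subunit, gave 2085 to 2734 at P0 and 1627 to 1893 at P15, with a difference of -0.50 ± 0.127 (limma, adjusted p = 0.0205). The Rps24 probe set gave 4799 to 5299 at P0 and 3375 to 4231 at P15, with -0.40 ± 0.109 (limma, adjusted p = 0.0281). That probe set carries the same sequence accession as the Rpl7 probe set just described, so its gene name is in doubt, and the other Rps24 probe set was below the limit. Rpl13a, which in human macrophages also silences inflammatory mRNAs once released from the ribosome, gave 110 to 159 at P0 and 66.4 to 121 at P15, which overlap, with a difference of -0.59 ± 0.182 (limma, adjusted p = 0.0425). These 4 calls were lost without single arrays: that of Rpl13a without any one of 6 arrays (the first euploid P0, second euploid P15, second euploid P30, first Ts1Cje P0, second Ts1Cje P15 and first Ts1Cje P30), with an adjusted p of up to 0.138. That of Rpl41 was lost without the second euploid P0 or the first P15 array of either genotype (up to 0.0998), that of Rps24 without the first P15 array of either genotype or the second euploid P30 array (up to 0.0838), and that of Rpl7 without the first Ts1Cje P0 array (0.0625).

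The 8 tested probe sets that were not called belong to Rpl22, Rps27, Rpl37a, Rps29, Rpl19, Rps13 and Rpl7l1. Rpl37a, a zinc-binding 60S protein, was the only one of them with a mean signal of at least 500. Its euploid signals were 605 and 627 at P0, 531 and 694 at P15, and 667 and 586 at P30. In Ts1Cje they were 612 and 624 at P0, 524 and 692 at P15, and 802 and 744 at P30. Stages overlapped fully between P0 and P15, and the fitted difference was -0.03 ± 0.143 (limma, adjusted p = 0.904). Among the 19 tested probe sets with a mean signal of at least 500, the other 18 were called lower, against 180 of 730 (24.7%) over all probe sets that bright.

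The remaining uncalled probe sets had mean signals of 26.6 to 173. Those of Rps27 (167) and the brighter Rpl22 probe set (173) were above that of the called Rpl13a probe set (99.1). Rps27, a zinc-finger 40S protein, gave 142 to 208 at P0, 128 to 171 at P15 and 154 to 217 at P30, which overlap, and the difference from P0 to P15 was -0.17 ± 0.169 (limma, adjusted p = 0.488). Its paralogue Rps27l, a target of p53, had a single probe set with a mean signal of 4.59, below the limit. Rpl7l1 is a relative of Rpl7 whose counterpart in yeast acts in early assembly of the 60S subunit. Its probe set gave 24.4 to 29.3 at P0 and 24.4 to 42.9 at P15, with a difference of 0.37 ± 0.214 (limma, adjusted p = 0.242).

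Probe sets of one gene did not always give one answer. Rpl22, which encodes an RNA-binding 60S protein that is dispensable in most tissues of the mouse, had 2 tested probe sets and neither was called. Its brighter probe set gave 201 and 384 in the euploid P0 pool and 120 and 143 at P15. In Ts1Cje it gave 141 and 201 at P0 and 155 and 156 at P15, so the stage difference was -1.06 in euploid and -0.11 in Ts1Cje. The fit gave -0.59 ± 0.222 (limma, adjusted p = 0.0828), and without the first Ts1Cje P0 array it was called lower (adjusted p = 0.0293). With any one array left out the difference ran from -0.82 to -0.36, with an adjusted p of up to 0.23 (without the second Ts1Cje P0 array), and -0.36 was the value without the second euploid P0 array. With a pool left out it ran from -0.96 to -0.21, with an adjusted p of up to 0.533. The dimmer one ranged from 20.1 to 47.2 over all stages, with -0.24 ± 0.21 (limma, adjusted p = 0.432). For Rpl19, a 60S protein that bridges both subunits, the bright probe set was called lower by -0.61 ± 0.126 (limma, adjusted p = 0.00817) and the one just inside the limit gave 0.02 ± 0.421.

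**Figure D2:**
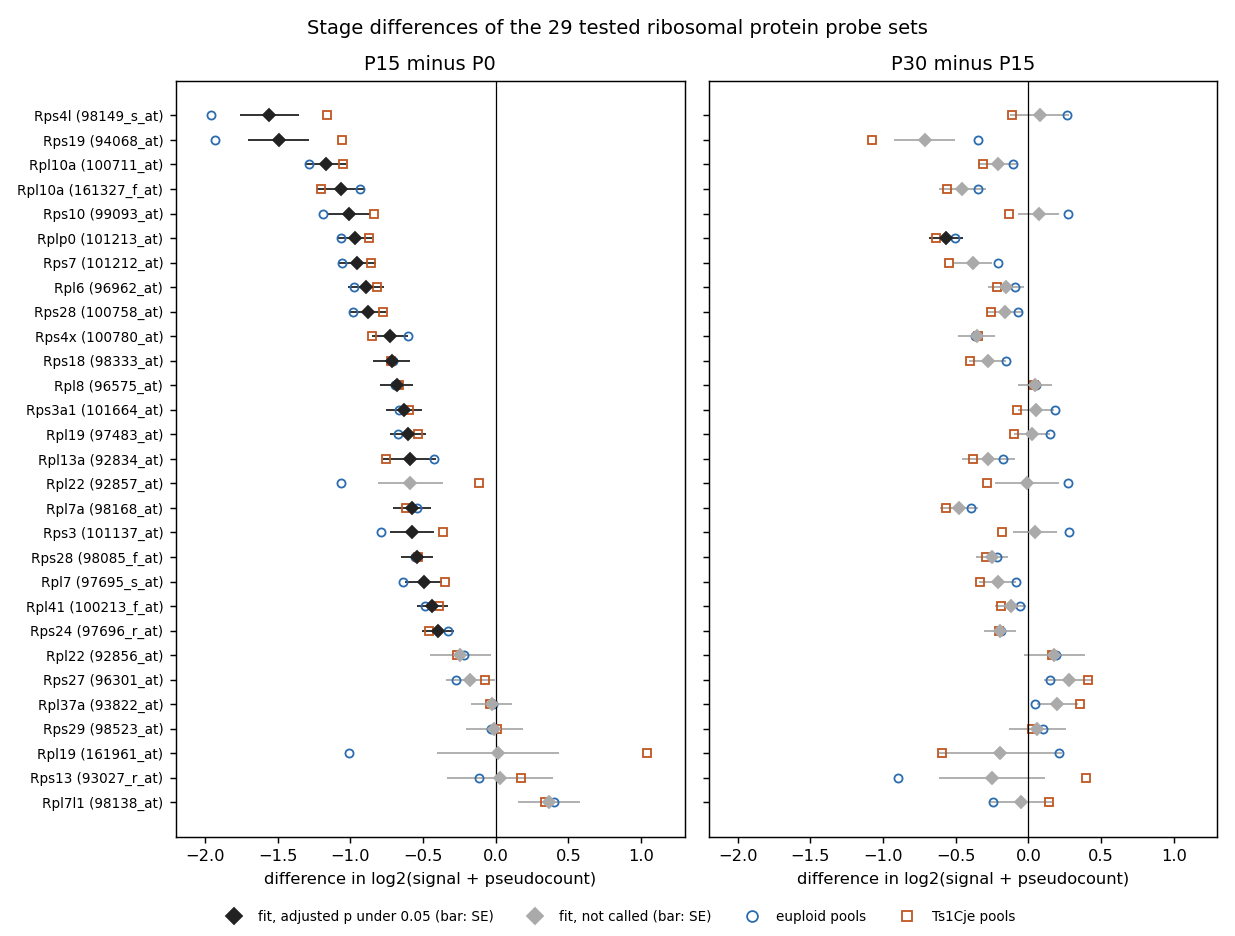
Log2 differences of the 29 tested ribosomal protein probe sets between P0 and P15 (left) and between P15 and P30 (right), on the log2(signal + 4.6) scale, in the same order in both panels. Diamonds with SE bars are the fit over both genotypes (black where the adjusted p is under 0.05), circles the euploid pools and squares the Ts1Cje pools. On the left 21 diamonds are black and all of these lie below 0, and on the right Rplp0 alone is black.

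Proteins of both subunits took part. Of 15 tested 60S probe sets 10 were called lower between P0 and P15, with a median difference of -0.59, and of 14 tested 40S probe sets 11, with a median of -0.67. Over all tested probe sets 14.4% were called lower. The 40S values include the called probe set named Rps24, whose gene name is in doubt and may be that of a 60S gene. The difference between the subunits was not tested. A further 34 tested probe sets carry a ribosomal protein symbol beside other symbols, and so are not counted among the 29. Of these, 28 were called lower and 0 higher, against 14.4% and 13.6% of all tested probe sets. At an unadjusted p under 0.05 the counts were 29 and 0, against 1555 and 1421 of all 7453, and the median was -0.76. Rpsa, the 40S protein also known as the laminin receptor, whose symbol has another form, fell by 1.09 ± 0.15 on the log2 scale (limma, adjusted p = 0.00115). Its signals were 758 and 812 in euploid and 767 and 768 in Ts1Cje at P0, then 322 and 347, and 402 and 383, at P15. Fau, which encodes a 40S protein fused to a ubiquitin-like one, was below the limit.

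The fall was seen in both genotypes. The median P15 minus P0 difference was -0.67 in the euploid pools, with 28 of 29 probe sets below 0, and -0.60 in the Ts1Cje pools, with 25 of 29. Over all 7453 tested probe sets, 3889 were below 0 in the euploid and 3895 in the Ts1Cje pools. In 25 of the 29 (86.2%) the value was below 0 in both genotypes, against 37.9% of all tested probe sets. Opposite signs were found for 3 of the 29, against 2130 of all 7453. All 4 P15 arrays lay below all 4 P0 arrays in 18 of the 29, against 19.1% of all tested probe sets, and in 0 were they all above, against 16.8%. Across the 29 probe sets the euploid and the Ts1Cje differences had a Pearson r of 0.576 as a description, and across all tested probe sets 0.788. The points of each genotype come from the same 4 arrays.

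Summed over the 29 probe sets, the signal was 46729 and 51562 in euploid and 49349 and 49122 in Ts1Cje at P0. It was 28321 and 31485, and 29781 and 34387, at P15, and 29629 and 25642, and 27293 and 26147, at P30. As a share of an array's summed signal these are 2.75% to 2.95% at P0, 1.73% to 2.04% at P15 and 1.58% to 1.78% at P30. The brightest probe sets weigh most in such a sum.

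From P15 to P30 few further changes were called. Rplp0 was called lower, by -0.57 ± 0.117 (limma, adjusted p = 0.0351), and 0 of the 29 were called higher, against 3.13% and 1.61% of all tested probe sets. At an unadjusted p under 0.05 the counts were 7 lower and 0 higher, against 816 and 796 of all 7453. The median difference was -0.16, against 0.06 for all tested probe sets. The Rplp0 call ended without any one of 5 arrays: the first euploid P0 array (adjusted p = 0.0789), the second euploid P15 (0.0566), the second euploid P30 (0.0571), the second Ts1Cje P15 (0.0511) and the first Ts1Cje P30 (0.0527). Its difference kept its direction in these fits, between -0.51 and -0.57.

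The largest difference from P15 to P30 was that of Rps19, -0.71 ± 0.209 (limma, adjusted p = 0.1), which was not called. After Rplp0 came Rpl7a, also not called, with -0.48 ± 0.129 (limma, adjusted p = 0.0796). Without the second euploid P15 array, Rps19 was called lower, by -0.97 (adjusted p = 0.0132), and without the first euploid P15 array the difference was -0.46 (adjusted p = 0.419). With a pool left out it ran from -1.12 to -0.31. Rpl7a, a 60S protein, gave 1045 and 1088 in euploid and 1047 and 1053 in Ts1Cje at P15, and then 877 and 748, and 713 and 704, at P30. Its 4 P30 arrays lay below its 4 P15 arrays, as did those of 5 of the 29 probe sets, against 10.2% of all tested, and 0 lay wholly above, against 12%. In this step 15 of 29 were below 0 in both genotypes, against 29% of all tested probe sets. Opposite signs were found for 9 of 29, a share near that of all tested probe sets (2331 of 7453). The medians were -0.09 in euploid and -0.22 in Ts1Cje, a difference that was not tested. The actin 3' to 5' ratio was highest on the Ts1Cje P30 arrays, and its part in this result was not tested.

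Over the whole month, from P0 to P30, 21 of the 29 were called lower and 0 higher, against 19.6% and 19.4% of all tested probe sets. At an unadjusted p under 0.05 the counts were 22 and 0, against 1772 and 1827 of all 7453. The median was -0.71, or 1.63-fold lower, against 0.04 for all. All 4 P30 arrays lay below all 4 P0 arrays in 21 of the 29 and above in 0, against 22.3% of all tested probe sets in each direction. Rps19 changed most, by -2.21 ± 0.209 (limma, adjusted p = 9.48e-05), or 4.62-fold lower. Rplp0 followed with -1.54 ± 0.117 (limma, adjusted p = 3.23e-05), then the Rpl10a probe sets with -1.52 ± 0.159 and -1.38 ± 0.138, Rps4l with -1.48 ± 0.203 and Rps7 with -1.34 ± 0.131. This comparison shares its P0 arrays with the first one and is not separate evidence.

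**Figure D3:**
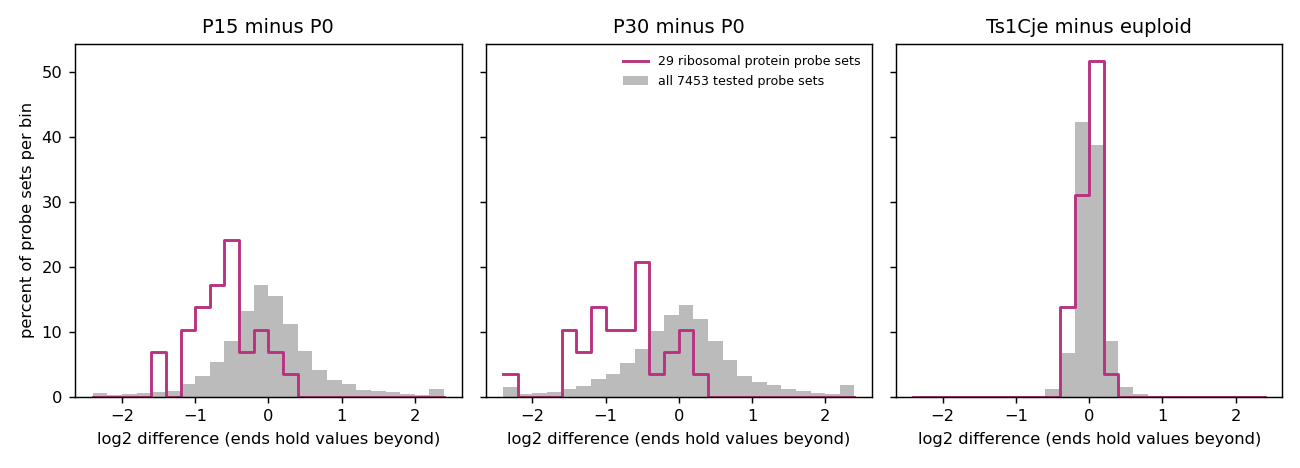
Distribution of log2 differences in 3 comparisons, as percent of probe sets per bin of 0.2. The line is the 29 tested ribosomal protein probe sets and the grey bars are all 7453 tested probe sets. In both stage comparisons the line lies mostly left of the bars (medians -0.59 and -0.71), and for Ts1Cje minus euploid it lies over them (median 0.00).

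The genotype comparison asks whether the trisomy changed these transcripts. In the fit over 3 stages 0 of the 29 were called in either direction, against 0.0% of all tested probe sets, and 0 had an unadjusted p under 0.05, against 217 of all 7453. The median difference, Ts1Cje minus euploid, was 0.00, as for all tested probe sets. Values ranged from -0.32 to 0.20. The member genes on chromosome 16 were Rpl35a and Rpl39l, with annotated starts at chr16:33056438-33056467 and chr16:10170213-10170242. Their probe sets were below the limit. The trisomy covers only a segment of this chromosome, and whether either gene lies in that segment was not checked here.

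The higher values in Ts1Cje with the smallest p were those of Rps29 (0.20 ± 0.16), the dimmer Rpl10a probe set (0.11 ± 0.13), Rpl41 (0.10 ± 0.0872) and Rps7 (0.10 ± 0.107). The lower values with the smallest p were those of Rpl13a (-0.32 ± 0.149), the brighter Rpl22 probe set (-0.26 ± 0.181), Rps13 (-0.25 ± 0.298) and the dim Rpl19 probe set (-0.25 ± 0.344). Each of these 8 had an adjusted p of 0.9999 in limma. Rpl13a was lower in Ts1Cje at each stage, by -0.03 at P0, -0.36 at P15 and -0.56 at P30. At P30 it gave 96.3 and 79.1 in euploid and 69.7 and 47.7 in Ts1Cje, with no overlap. A single sign at all 3 stages was found for 5 of the 29, against 20.8% of all tested probe sets.

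Within a stage each genotype has 1 pool, so only values can be given. At P0 the 29 had a median difference of -0.03, with 15 below 0. The P15 median was 0.11, with 8 below 0, and the P30 median -0.06, with 19 below 0. Over all 7453 tested probe sets, 3548 were below 0 at P0, 3661 at P15 and 3737 at P30. At P0, the dim Rpl19 probe set and Rps13 were at least 1.5-fold lower in Ts1Cje without overlap of the arrays, against 3.86% of all tested probe sets, and 0 were higher, against 3.54%. At P15 the counts were 0 and 0, against 3.21% higher and 1.95% lower. At P30 Rps13 was higher, against 2.28%, and 0 were lower, against 2.13%. Both probe sets were dim: Rps13, whose product binds early in assembly of the 40S subunit, ranged from 12.4 to 49.9 over the 12 arrays, and that of Rpl19 from 8.5 to 57.7. Their direction turned between stages, with Rps13 at -0.88, -0.58 and 0.71 and Rpl19 at -1.35, 0.70 and -0.10. For 4 of the 29 the arrays of both genotypes lay apart in opposite directions at 2 stages, against 24.2% of all tested probe sets.

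**Figure D4:**
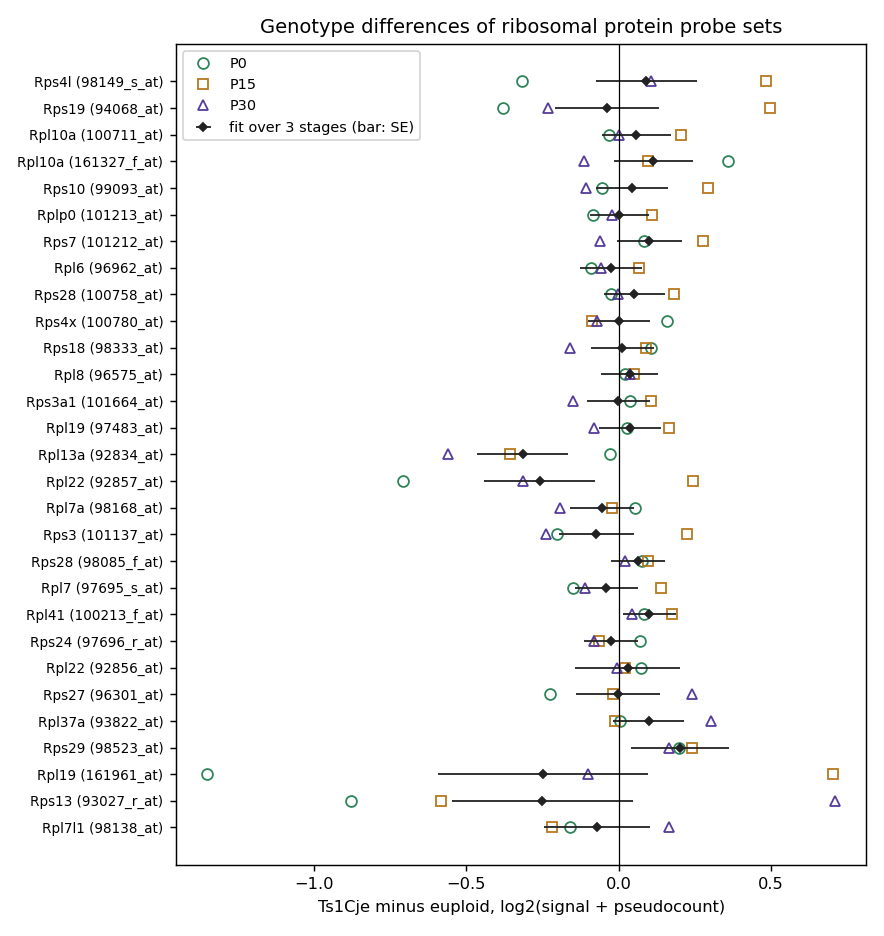
Ts1Cje minus euploid differences of the 29 tested ribosomal protein probe sets on the log2(signal + 4.6) scale, in the order of their P15 minus P0 difference. Open symbols are single stages and diamonds with SE bars the fit over 3 stages. The widest spreads are those of the dim Rpl19 and Rps13 probe sets, and most fitted values lie within 0.1 of 0.

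Other genes of the translation pathway were read from lists chosen with earlier results of these data known, with the brightest probe set of each gene. For the unadjusted counts of these lists, 1555 of all 7453 tested probe sets were lower and 1421 higher between P0 and P15. Between P15 and P30 they were 816 and 796. Of 30 tested genes of the nucleolus and ribosome assembly, 10 were called lower and 1 higher between P0 and P15, against 14.4% and 13.6% of all tested probe sets, with a median of -0.35. Bysl, the assembly factor bystin of the 40S subunit, fell by 1.87 ± 0.162 (limma, adjusted p = 0.000122), from 299 to 384 over the P0 arrays to 72.1 to 108 at P15. Nop58, a core protein of the particles that guide methylation of ribosomal RNA, fell by 0.92 ± 0.223 (limma, adjusted p = 0.0161). Sbds, which frees the 60S subunit for its first round of translation, was the one gene called higher, by 0.63 ± 0.159 (limma, adjusted p = 0.0195). From P15 to P30, 0 of the 30 were called in limma, against 3.13% lower and 1.61% higher of all, and 0 were lower and 1 higher at an unadjusted p under 0.05.

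RNA polymerase I transcribes ribosomal RNA. Of its 15 tested subunits and factors 0 were called between P0 and P15 in limma, against 14.4% lower and 13.6% higher of all tested probe sets, 1 was lower and 2 higher at an unadjusted p under 0.05, and the median was 0.03. Of 27 tested initiation factors, 5 were called lower and 0 higher, with 12 and 2 at an unadjusted p under 0.05 and a median of -0.35. The share called lower is near that of all tested probe sets (14.4%), so the count is no result about the list. Eif2s2, the beta subunit of the factor that delivers the initiator tRNA, fell by 1.67 ± 0.205 (limma, adjusted p = 0.000718), and Eif3e, a subunit of the scaffold factor eIF3, by 0.99 ± 0.195 (limma, adjusted p = 0.00641). Of 9 tested TOP mRNAs of other proteins and their partners, 4 were called lower and 0 higher, against the same 14.4% and 13.6%, with 6 and 0 at an unadjusted p under 0.05 and a median of -0.47. Nap1l1, a histone chaperone, fell by 0.67 ± 0.179 and Serbp1, an mRNA-binding protein found on ribosomes, by 0.59 ± 0.181 (limma, adjusted p = 0.0253 and 0.0403).

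Of 8 tested elongation and release factors, 2 were called lower and 1 higher between P0 and P15. Over all tested probe sets 14.4% were called lower and 13.6% higher, so these counts are near the background and are given for the genes alone. Eef1a1, the general elongation factor that carries aminoacyl-tRNA to the ribosome, gave 4209 to 6630 at P0 and 2905 to 4353 at P15 and fell by 0.54 ± 0.16 (limma, adjusted p = 0.0372). Eef1a2, its form in mature neurons and muscle, gave 1277 to 1704 at P0 and 1941 to 2581 at P15 and was higher by 0.67 ± 0.142 (limma, adjusted p = 0.00933). Gspt2, a release factor, fell by 0.92 ± 0.162 (limma, adjusted p = 0.0037), and its relative Gspt1 fell from P15 to P30 by 0.81 ± 0.164 (limma, adjusted p = 0.0338).

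Of 8 tested genes of the S6 kinase and mTOR pathway, which acts on ribosomes and on TOP mRNAs, 0 were called between P0 and P15 in limma (14.4% lower and 13.6% higher over all tested probe sets), with 3 lower and 0 higher at an unadjusted p under 0.05 and a median of -0.06. Mycn, a transcription factor of growth that is also in the list of progenitors and cell division, fell from P15 to P30 by 1.40 ± 0.222 (limma, adjusted p = 0.0142). The ribosome of mitochondria has its own proteins. Of 57 tested Mrpl and Mrps genes, 2 were called lower and 4 higher between P0 and P15, with a median of -0.11, which are smaller shares than the 14.4% and 13.6% over all tested probe sets. Mrpl52 (-1.05 ± 0.158) and Mrps15 (-0.62 ± 0.196) were called lower, and Mrps25 (0.82 ± 0.193) and Mrps12 (0.68 ± 0.161) were the largest called rises. Across lists, a difference between one list and another was not tested.

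**Figure D5:**
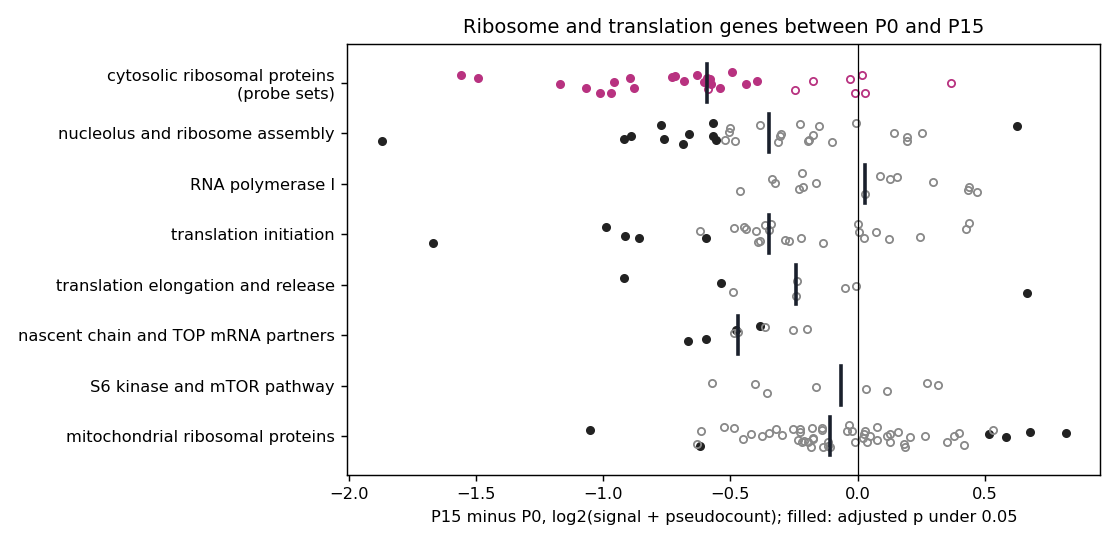
Differences between P0 and P15 on the log2(signal + 4.6) scale for the 29 ribosomal protein probe sets and for genes of 7 other lists (the brightest probe set of each). Each point is a probe set, filled where the adjusted p is under 0.05, and bars are the medians of a list. The ribosomal protein median stands at -0.59, assembly and initiation at -0.35, RNA polymerase I at 0.03 and mitochondrial ribosomal proteins at -0.11.

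Markers of cell types moved over the same stages. Over all tested probe sets 14.4% were called lower and 13.6% higher between P0 and P15, and 3.13% and 1.61% between P15 and P30. Of 9 tested genes of granule cell progenitors and cell division, 3 were called lower between P0 and P15 (Mki67 by 1.08 ± 0.277, Cdk1 by 0.92 ± 0.245 and Mcm2 by 0.65 ± 0.186). Between P15 and P30, 3 were called lower, with Mki67 lower by a further 2.30 ± 0.277. The list of 14 genes on the array summed to 889 to 1109 at P0, 612 to 733 at P15 and 520.0 to 591 at P30, and Atoh1, Ccnd2 and Mcm6 were at a mean signal under 10. Called rises between P0 and P15 were found for 4 of 5 tested mature granule cell genes, 4 of 4 of Purkinje cells, 4 of 4 of myelin and 3 of 4 of astrocytes. Their summed signals went from 694 to 932 at P0 to 4042 to 5502 at P15 for mature granule cells, from 578 to 836 to 5406 to 7311 for Purkinje cells, from 93.9 to 147 to 5019 to 5490 for myelin and from 3652 to 4298 to 5882 to 6547 for astrocytes. The remaining astrocyte marker, Fabp7, was not called between these stages and gave 2578 to 3358 at P0 and 1864 to 2295 at P15. The part of these marker shifts in the ribosomal protein result was not tested.

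Of the other cell types, microglia had 0 of 4 tested markers called between P0 and P15 (0 at an unadjusted p under 0.05 in limma), endothelium 2 of 5 lower and blood 1 of 3 higher. The shares over all tested probe sets were 14.4% lower and 13.6% higher. Summed signals over all 12 arrays were 226 to 340 for microglia, with Aif1 at a mean under 10, 180 to 296 for endothelium and 2535 to 8051 for blood, where euploid arrays had 4498 or more and Ts1Cje arrays 3423 or less. Choroid plexus and meninges had 1 of 7 called higher between P0 and P15, a share near the 13.6% of all tested probe sets. Between P15 and P30 they had 4 higher and 1 lower, against 1.61% and 3.13% of all. Their sums were 2671 to 4114 up to P15 and 5293 to 7150 at P30. The part of these cell types in the ribosomal protein results was not tested.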

How the data were processed

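Total RNA of individual frozen cerebella was pooled by genotype and stage, made into biotinylated cRNA and hybridised to Affymetrix arrays, per the labels' protocols. The deposited values are linear signal intensities that the authors made with MAS5, per the submitters' processing notes. The sources used here do not name a version. Judged by the values, the authors had scaled every array to a common mean (100.05 to 100.06 after trimming 2% at each end), and no further scaling was applied. Symbols came from the platform annotation (10855 probe sets with 1 symbol, 396 with several, 1237 with none), which can be old. All 34 genes matched the RefSeq table.

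Values were taken as log2(signal + 4.6), with the 20th percentile over the whole table (4.6) as pseudocount, so fold changes of dim probe sets are understated. The 66 control probe sets and probe sets with a mean under 20.1 (the 40th percentile) were left out. The 2 arrays of a pool were averaged, and an additive model of genotype and stage was fitted to all 7453 remaining probe sets with limma 3.58.1 in R 4.3.3 (eBayes with trend, 2 residual and 6.39 prior degrees of freedom), tested two-sided and adjusted by Benjamini-Hochberg at 0.05. The number of pools limits the precision. The p-values reflect how far these 6 pools depart from the additive model, moderated over all tested probe sets, and do not measure the spread among animals. The procedure was tested on simulated data in which arrays varied only by the spread between the 2 arrays of a pool. Variation between pools was not simulated, so that test says nothing about it. Plots used matplotlib 3.10.9 (python 3.11.15).

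The genes and lists were chosen with earlier results of these data known. Named probe sets were, per stage comparison, the 6 largest called falls and 4 largest called rises, for genotype the 4 higher and 4 lower with the smallest p, then stalk proteins and paralogue pairs, and from each list the 2 largest called falls and rises; exceptions are stated. Alternatives changed the normalization, pseudocount, filter, trend, level of the fit, arrays, pools and probe sets counted. Signal over background limits dim probe sets, and detection calls were not used here.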

Additional observations from a re-analysis of the deposited data

Results flagged for a closer look

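For 4 of the 29 tested ribosomal protein probe sets (13.8%), the Ts1Cje arrays lay wholly on one side of the euploid arrays at one stage and wholly on the other side at another stage, which was seen for 24.2% of all tested probe sets. The change of direction was not tested, since each genotype and stage has 1 pool. Rps3, a 40S protein at the mRNA entry, differed by -0.20 at P0, 0.22 at P15 and -0.24 at P30 on the log2 scale (Ts1Cje minus euploid). For the brighter Rpl22 probe set the values were 0.24 at P15 and -0.31 at P30. Rps13 gave -0.88 at P0, -0.58 at P15 and 0.71 at P30. Rps4l gave -0.32 at P0 and 0.48 at P15.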

How the results depend on the processing

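Across 32 alternatives the number of ribosomal protein probe sets called lower stayed between 15 and 22 for P15 minus P0 and for P30 minus P0, and 0 were called higher in any comparison or between genotypes. In all 30 fits (the 29 alternatives to the model or the arrays and the reported one), 13 probe sets were called lower between P0 and P15 and 14 between P0 and P30. Shares over all probe sets were not counted in the alternative fits, so these counts have none beside them. The P15 minus P0 median was -0.49 after quantile normalization, -0.42 with no filter, -0.66 with the filter at the 60th percentile and -0.70 to -0.55 with a pool left out. The P30 minus P0 median was -0.58, -0.40 and -0.91 under these 3 settings, -0.93 for the second hybridisations alone, -0.81 to -0.67 with an array left out and -0.79 to -0.66 with a pool left out. With no filter, 19 dim probe sets join the count. The P30 minus P15 count (1) was 0 with no filter, without the trend and for the second hybridisations alone, 4 with 12 arrays and the pool as a random block, 0 to 1 with an array left out and 0 to 2 with a pool left out, and its median was 0.035 with no filter.

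The hybridisation number as a replicate block gave 21, 3, 22 and 0 calls lower for P15 minus P0, P30 minus P15, P30 minus P0 and genotype. Over the 6 pairs among the P0 and P15 pools, same-numbered arrays deviated together (r of 0.15 to 0.35). Over the 9 pairs with a P30 pool r was -0.12 to 0.14, so not every one of the 15 pairs was over 0.1, and the numbers were not taken to pair samples.

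Between P0 and P15, calls were lost for Rpl13a in 13 of 29 alternatives, for the Rps24 probe set in 11, for Rpl41 in 10, for Rpl7 in 8, for Rps3 in 4, for the second Rpl10a and Rps28 probe sets in 2 each and for Rpl7a in 1. The highest adjusted p over the 29 alternatives was 0.264 for Rpl13a, 0.508 for Rps24, 0.593 for Rpl41, 0.158 for Rpl7, 0.142 for Rps3, 0.0777 for Rpl10a, 0.104 for Rps28 and 0.0857 for Rpl7a. The brighter Rpl22 probe set was called in 5 alternatives, and its adjusted p ran up to 0.533 in the others. Rplp0 lost its P30 minus P15 call in 12. The cause was not tested. Signs turned for values near 0. The dimmer Rpl22 probe set gave 0.12 for the first hybridisations alone and -0.50 to 0.011 with an array left out. Rpl37a gave 0.15 for the second hybridisations alone, -0.13 to 0.071 with an array left out and -0.11 to 0.055 with a pool left out. Between genotypes, the dimmer Rpl10a probe set gave -0.097 to 0.33 with an array and -0.0087 to 0.23 with a pool left out, and with a pool left out Rps13 gave -0.73 to 0.063 and the dim Rpl19 probe set -0.72 to 0.30.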
